A study of Mus musculus with 83 samples.

Results

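The 8 genes described here encode transcription factors that set and keep the identity of the intestinal epithelium, the sheet of cells that lines the gut. They are Cdx1 and Cdx2, Hnf4a and Hnf4g, Klf4 and Klf5, and Ehf and Elf3, 4 pairs of related genes among the 37764 genes of the table. They were chosen by name, and each was found by its Ensembl identifier and passed the filter on low counts, together with 18325 genes in all. RNA was sequenced in bulk from the colon of 83 male mice of the C57BL/6J/Ukj strain, with 16 mice at 3 mo, 16 at 9 mo, 16 at 15 mo, 17 at 24 mo and 18 at 28 mo. The methods name the proximal part of the colon. The mice carried no transgene or treatment named in the labels and, per the labels, were kept for ageing alone. The paper adds that its samples came from a larger study of multiple variables. Each mouse gave 1 library. Libraries were prepared in 3 batches, each with 4 to 7 mice of every age. Total counts on genes ran from 23026370 to 75838290 read pairs per library, with 35495123 as their median.

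CDX1 and CDX2 are caudal-type homeobox factors that give the gut tube its posterior, intestinal character and switch on genes of mature enterocytes and goblet cells. HNF4A and HNF4G are nuclear receptors that act in part redundantly on enterocyte and lipid-handling genes. KLF4 and KLF5 are zinc finger factors of the same family with contrasting places in the crypt: KLF5 is known for the dividing cells of the crypt, KLF4 for the differentiated cells near the surface and for goblet cells. EHF and ELF3 are ETS-domain factors that are restricted to epithelia.

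Levels between genes were compared as TPM, a unit that corrects for exon length. In the mean over 83 mice the order was Klf4 (690.1 ± 83.7 TPM, SD, n = 83), Elf3 (673 ± 111), Cdx1 (527 ± 58.0), Hnf4a (523 ± 49.4), Cdx2 (493 ± 62.6), Ehf (271 ± 35.1), Klf5 (238 ± 23.6) and Hnf4g (27.8 ± 5.86). Neighbours in that order were not all apart. Klf4 was above Elf3 in 47 of 83 mice and Cdx1 above Hnf4a in 40 of 83, so these neighbours did not differ beyond the spread between mice. Hnf4a was above Cdx2 in 64 mice, Elf3 above Cdx1 in 79 and Ehf above Klf5 in 76. Cdx2 was above Ehf in 82 mice and Klf5 above Hnf4g in all 83, with a median ratio of 8.90 for the latter. The leading gene was not the same at every age. Elf3 had the highest mean TPM of the 8 at 3 mo (784 ± 89.4 against 639.6 ± 53.3 for Klf4) and Klf4 at 28 mo (771 ± 86.3 against 618 ± 75.3 for Elf3).

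The promoters of members that differed between 3 mo and 28 mo are given first, with a search for core sequences of the 4 families, since factors of this kind are known to bind each other's genes. RefSeq promoter windows on GRCm38.p6, 300 bases from 250 before the transcription start to 50 after it, were at hand for 4 of the 8 genes: Cdx2, Hnf4a, Klf4 and Elf3. Hnf4a has 2 windows, for 2 separate starts of the gene. Each window was searched on both strands for 1 core sequence per family: TTTATG for CDX, CAAAGTCCA for HNF4, CCACACCC for KLF and AGGAAG for ETS factors. Capitals mark a match, which on the other strand reads CTTCCT for ETS factors.
Elf3, chr1:135258423-135258722, minus strand: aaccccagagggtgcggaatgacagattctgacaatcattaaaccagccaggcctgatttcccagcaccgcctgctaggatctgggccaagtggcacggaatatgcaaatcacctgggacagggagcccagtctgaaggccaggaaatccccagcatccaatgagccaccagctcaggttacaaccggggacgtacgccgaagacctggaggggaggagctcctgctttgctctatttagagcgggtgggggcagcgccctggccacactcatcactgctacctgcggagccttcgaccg
Klf4, chr4:55532426-55532725, minus strand: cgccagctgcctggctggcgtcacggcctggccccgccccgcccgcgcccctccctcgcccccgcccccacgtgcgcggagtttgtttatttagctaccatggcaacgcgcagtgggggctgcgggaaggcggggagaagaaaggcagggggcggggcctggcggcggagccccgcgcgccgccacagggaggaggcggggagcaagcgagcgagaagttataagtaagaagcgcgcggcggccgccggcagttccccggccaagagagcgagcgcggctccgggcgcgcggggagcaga
Cdx2, chr5:147307200-147307499, minus strand: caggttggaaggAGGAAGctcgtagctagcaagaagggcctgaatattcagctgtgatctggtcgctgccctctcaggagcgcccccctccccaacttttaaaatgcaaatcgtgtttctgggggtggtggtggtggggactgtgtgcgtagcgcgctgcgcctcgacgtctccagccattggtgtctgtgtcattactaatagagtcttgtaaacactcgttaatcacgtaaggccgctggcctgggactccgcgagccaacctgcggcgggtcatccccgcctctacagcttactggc
Hnf4a, chr2:163506607-163506906, plus strand: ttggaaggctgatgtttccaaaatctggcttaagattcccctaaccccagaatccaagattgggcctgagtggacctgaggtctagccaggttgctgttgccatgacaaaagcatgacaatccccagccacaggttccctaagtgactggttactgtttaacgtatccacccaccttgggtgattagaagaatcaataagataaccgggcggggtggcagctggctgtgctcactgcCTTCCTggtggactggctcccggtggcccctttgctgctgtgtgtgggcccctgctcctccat
Hnf4a, chr2:163546905-163547204, plus strand: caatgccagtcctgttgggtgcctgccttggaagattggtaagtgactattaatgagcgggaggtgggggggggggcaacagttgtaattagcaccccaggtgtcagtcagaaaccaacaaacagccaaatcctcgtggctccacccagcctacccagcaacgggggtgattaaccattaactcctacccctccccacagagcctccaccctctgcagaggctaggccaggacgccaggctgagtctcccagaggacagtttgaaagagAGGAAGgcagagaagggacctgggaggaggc

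The ETS core AGGAAG was found once in the Cdx2 window, beginning at position -238, once in the first Hnf4a window at position -13 and once in the second at position 20, counted from the start of transcription. No core sequence was found in the Elf3 or Klf4 window. Over 32544 promoter windows of this length, the ETS core was present in 35.1%, the CDX core in 11.9%, the KLF core in 3.57% and the HNF4 core in 0.479%. The Klf4 window had a GC content of 74.3% and 40 CpG dinucleotides, and the Elf3 window 59.0% and 12. The median window had 53.0% and 7.

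From 3 mo to 28 mo, 6 of the 8 factors differed. Cdx1, Cdx2, Hnf4a, Ehf and Elf3 were lower at 28 mo, and Klf4 was higher. The largest fall was that of Elf3 and the only rise that of Klf4. Hnf4g and Klf5 did not pass the test. Over all genes tested, 49.4% were called in this comparison (adjusted p below 0.1, edgeR's quasi-likelihood test), 25.9% as lower and 23.5% as higher, so at these sample sizes a call between 3 mo and 28 mo was common. The median log2 fold change of the 8 was -0.14, against -0.01 over all genes tested. In bulk RNA, fewer epithelial cells in a sample and less RNA per cell cannot be told apart. Replicates are separate mice, so the errors given are between animals. All levels below, unless TPM is named, are CPM, counts scaled to library size, and fold changes are log2 values with their standard errors (SE).

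**Figure D1:**
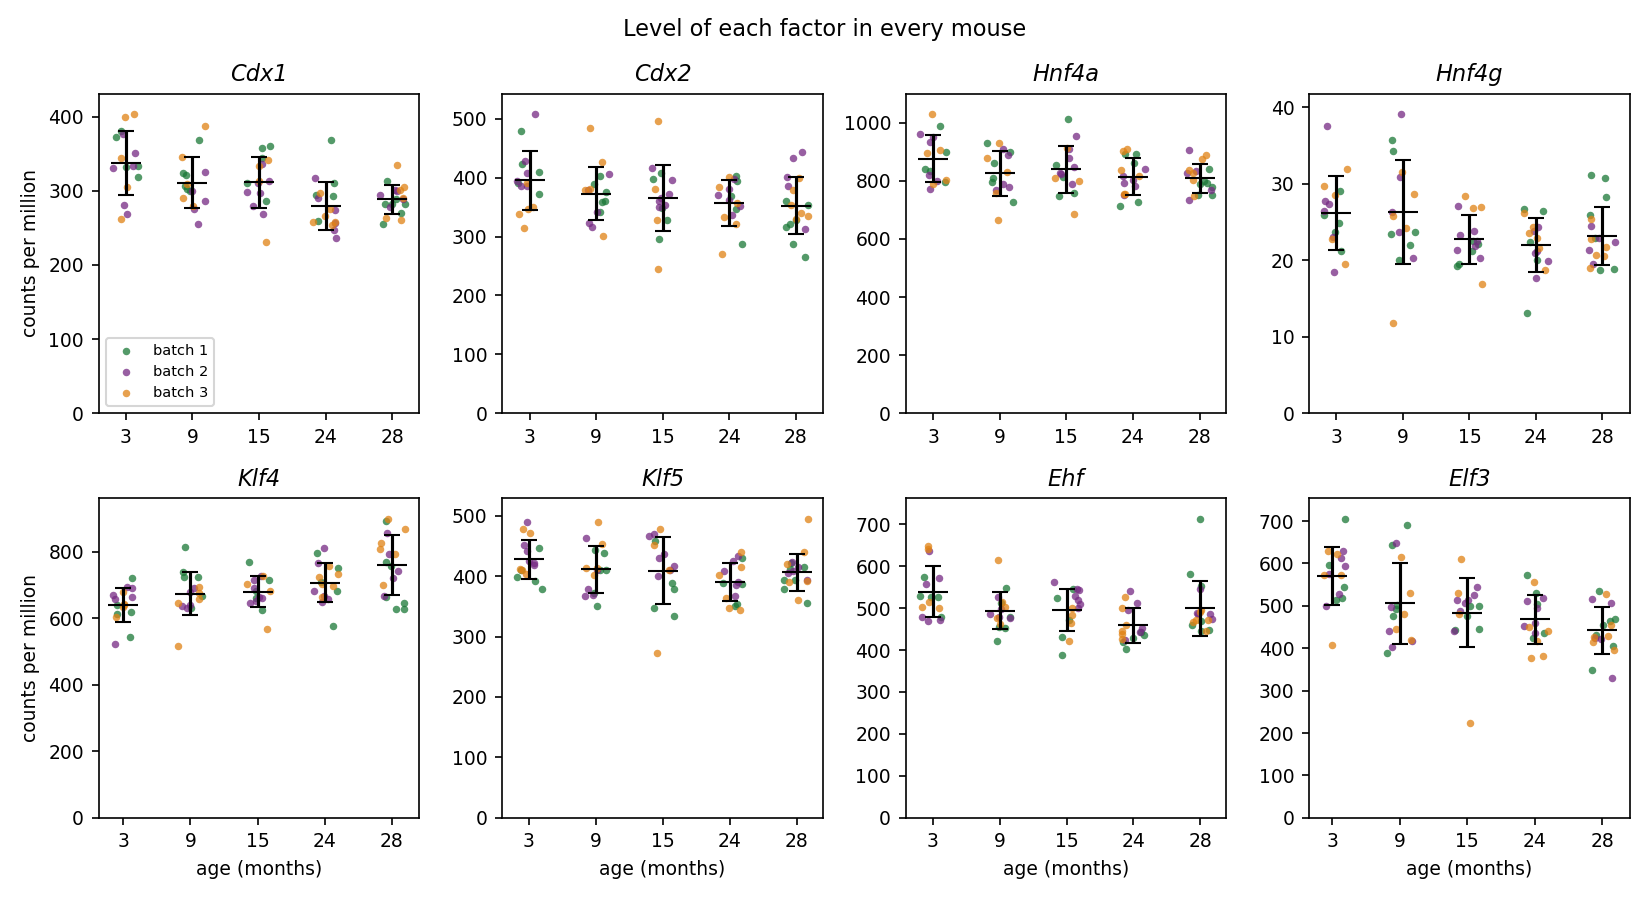
Level of each factor (CPM, vertical axes from 0) in each of 83 mice against age in months, one dot a mouse coloured by library batch, with the mean and SD of each age as black bars. Elf3 goes from a mean of 571 at 3 mo to 442 at 28 mo and Klf4 from 639 to 758. Single dots far from their group are the 15 mo mouse with 224 for Elf3 and the 28 mo mouse with 712 for Ehf.

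Elf3, on chr1:135253575-135258568 (GRCm38), had a lowest level of 407, a median of 574 and a highest of 705 CPM over the 16 mice of 3 mo. At 28 mo the lowest was 330.2, the median 430 and the highest 535 over 18 mice. The groups overlapped, and yet all 18 mice of 28 mo were below the median of the 3 mo mice. Mean levels were 571 ± 68.8, 506 ± 95.1, 484 ± 81.4, 468 ± 57.3 and 442 ± 56.4 CPM (SD) in order of age. The fold change from 3 mo to 28 mo was -0.37 ± 0.08, a fall of 22.5% (adjusted p 4.72e-05, edgeR). It was -0.38, -0.40 and -0.34 on the log2 scale within batches 1, 2 and 3. No single step between neighbouring ages passed the test for Elf3, the lowest adjusted p being 0.184 for 3 mo against 9 mo. Exons of Elf3 overlap the antisense gene Gm26642 on the opposite strand, which had a median count of 1 per mouse in this strand-specific counting.

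Ehf, the other ETS factor of the set, on chr2:103263433-103303278, followed a different course. Its lowest, median and highest levels were 469.7, 525 and 648 CPM at 3 mo. They were 402, 444 and 542 CPM at 24 mo, and 445, 480 and 712 at 28 mo. All 18 mice of 28 mo were above the 24 mo median, although 14 of them lay within the range of the 24 mo mice. Ehf was the only member called between 24 mo and 28 mo, where 11.7% of genes were called and 5.66% as higher (0.13 ± 0.05, adjusted p 0.0990, edgeR). The difference was 0.28 in batch 1, 0.06 in batch 2 and 0.03 in batch 3. A single 28 mo mouse of batch 1, replicate 13, had 712 CPM, where the other 17 mice of that age reached at most 581. Its summed epithelial markers were also the lowest of its age, at 8629 CPM against 9396 to 11978 CPM in the other 17. So were its sums for fibroblast (603 CPM), endothelial (98.8) and crypt stem cell markers (62.9). Its sums for enteroendocrine markers (532) and for other gut epithelial factors (2120) were the highest. With the mean log2 CPM of the epithelial markers as a covariate, the Ehf difference was 0.12 and no longer called (adjusted p 0.128, edgeR). Over 14 alternative analyses the call held in 4. Without that mouse the 28 mo mean was 487 ± 38.8 CPM in place of 499.6 ± 65.1, the fold change was 0.09 and the call was lost (adjusted p 0.214). From 3 mo to 28 mo Ehf differed by -0.10 ± 0.05 (adjusted p 0.0923), with -0.02, -0.09 and -0.23 within batches. That call held in 6 of 14 alternative analyses, and with the summary of smooth muscle markers as a covariate the value was -0.06 (adjusted p 0.342).

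Ehf was also the only member whose levels departed from a straight line with age (adjusted p 0.0720, edgeR, quadratic to quartic terms together), where 16.2% of all genes were called. Without replicate 13 of 28 mo no member passed. Mean Ehf levels were 539 ± 60.6, 494 ± 44.9, 496 ± 49.8, 459 ± 41.1 and 499.6 ± 65.1 CPM in order of age, with the lowest mean at 24 mo. The ratio of Ehf to Elf3 within a mouse was higher at 28 mo than at 3 mo by 0.26 on the log2 scale (0.18 ± 0.18 against -0.08 ± 0.22, SD, permutation test within batches, adjusted p 0.0124). It lay above the 3 mo median in 15 of 18 mice, and the difference was 0.35, 0.31 and 0.10 in the 3 batches. The ratio also differed between 24 mo and 28 mo, by 0.20 (adjusted p 0.0565), with 0.43, 0.19 and 0.01 within batches. Without replicate 13 of 28 mo these differences were 0.24 and 0.19 (permutation adjusted p 0.0219 and 0.0987).

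Klf4, on chr4:55527143-55532466, had a lowest level of 522, a median of 642 and a highest of 721 CPM at 3 mo, and 627, 763 and 898 CPM at 28 mo. Of the 18 mice of 28 mo, 16 were above the 3 mo median and 7 lay within the 3 mo range. Mean levels were 639 ± 52.1, 673 ± 64.5, 679.7 ± 47.7, 707 ± 58.8 and 758 ± 90.2 CPM in order of age, each above the one before. The fold change from 3 mo to 28 mo was 0.25 ± 0.05, a rise of 18.6% (adjusted p 1.53e-05, edgeR), with 0.18, 0.22 and 0.35 in batches 1, 2 and 3. None of the 4 steps between neighbouring ages was called, the last having the lowest adjusted p (0.10 ± 0.05, adjusted p 0.175).

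Klf5, on chr14:99298691-99315036, had means of 428 ± 32.4 CPM at 3 mo and 406 ± 30.8 CPM at 28 mo, with 390.1 ± 32.0 at 24 mo as the lowest. The fold change from 3 mo to 28 mo was -0.07 ± 0.05 (adjusted p 0.236, edgeR). Within a mouse, the ratio of Klf4 to Klf5 was 0.58 ± 0.13 on the log2 scale at 3 mo and 0.89 ± 0.22 at 28 mo (SD). The difference of 0.32 was called (permutation p 2e-05, adjusted p 0.0004 over 20 tests). The ratio was above the 3 mo median in 16 of 18 mice of 28 mo, and differed by 0.21, 0.33 and 0.41 in the 3 batches. Klf4 thus moved relative to its paralogue as well as relative to the library. No other step of this ratio was called over all mice. Without the 15 mo mouse described below the steps from 3 mo to 9 mo and from 15 mo to 24 mo were also called, at 0.13 and 0.14 (permutation adjusted p 0.0988 and 0.0738).

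**Figure D2:**
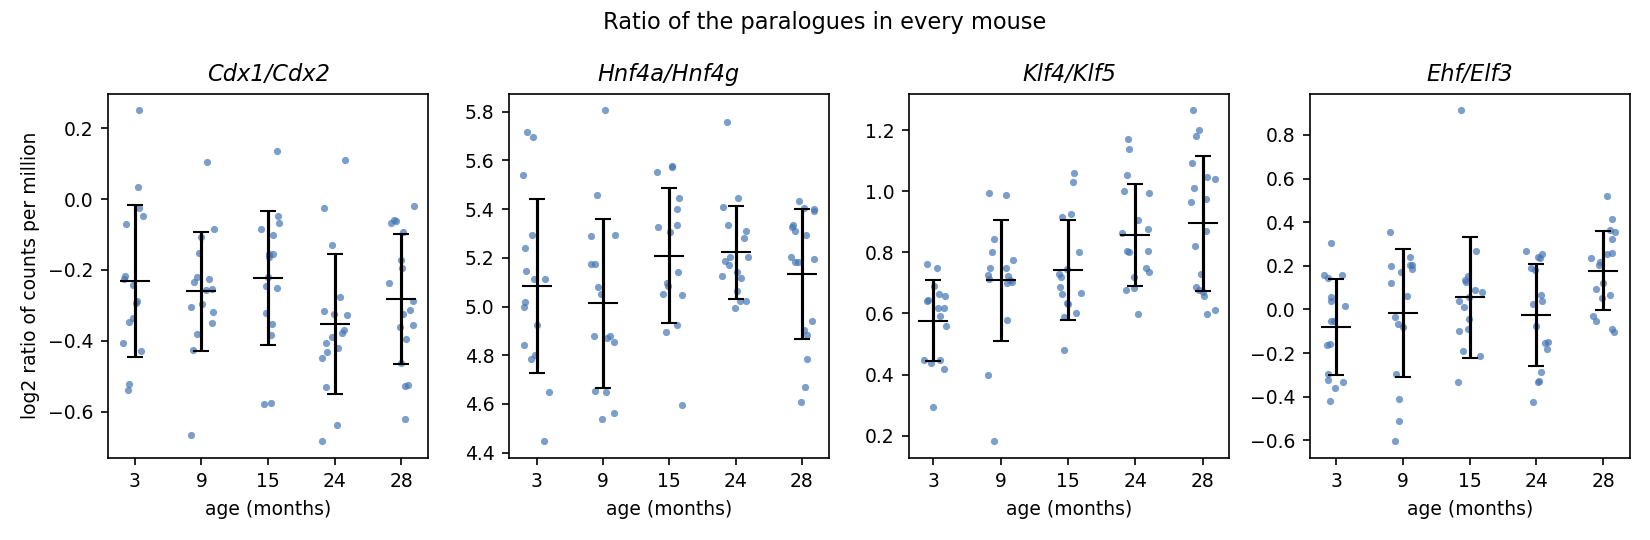
Log2 ratio of CPM within each mouse for the 4 pairs of related genes, against age in months. Dots are mice and bars are the mean and SD of each age. The mean Klf4/Klf5 ratio goes from 0.58 at 3 mo to 0.89 at 28 mo and the Ehf/Elf3 ratio from -0.08 to 0.18, and the other ratios show no called step.

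Cdx1, on chromosome 18, had a lowest level of 262, a median of 333 and a highest of 403 CPM at 3 mo, and 255, 289 and 335 CPM at 28 mo. Only 1 of 18 mice of 28 mo was above the 3 mo median. The fold change was -0.23 ± 0.05, a fall of 14.9% (adjusted p 0.000171, edgeR), with -0.30, -0.14 and -0.22 in batches 1, 2 and 3. Cdx1 was also the only member called between 15 mo and 24 mo, where 13.5% of genes were called and 7.24% as lower. Its mean went from 311 ± 34.6 to 279.5 ± 32.5 CPM and 15 of 17 mice of 24 mo were below the 15 mo median (-0.16 ± 0.05, adjusted p 0.0464). The difference had the same sign in each batch (-0.13, -0.16 and -0.17), and the call was lost when any 1 batch was left out (adjusted p 0.117, 0.316 and 0.186 without batches 1, 2 and 3). In this step all 4 endothelial and 4 of 5 macrophage markers were higher, and the tuft cell markers Trpm5 and Pou2f3 and the goblet cell marker Clca1 were lower. The part of these cell types in the Cdx1 difference was not tested. No call was made among the 8 epithelial markers, and with their mean as a covariate Cdx1 was still called (-0.13, adjusted p 0.0112, edgeR).

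Cdx2, on chr5:147300805-147307270, had means of 395 ± 49.4, 373 ± 45.2, 365 ± 55.7, 357 ± 38.4 and 353 ± 47.6 CPM in order of age. The difference between 3 mo and 28 mo was -0.16 ± 0.06 (adjusted p 0.0355, edgeR), and 14 of 18 mice of 28 mo were below the 3 mo median. It did not hold in every batch, with -0.38 in batch 1, -0.08 in batch 2 and 0.03 in batch 3, and without batch 1 it was -0.02 (adjusted p 0.844). No difference in the ratio of Cdx1 to Cdx2 was called between 3 mo and 28 mo (-0.05, permutation adjusted p 0.695). Its largest step, -0.13 from 15 mo to 24 mo, did not pass after adjustment (permutation p 0.0444, adjusted p 0.152).

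Hnf4a, on chr2:163506808-163572910, was the most counted of the 8 genes, with means of 876 ± 79.9 CPM at 3 mo and 808 ± 50.3 CPM at 28 mo. The difference of -0.12 ± 0.04 was called (adjusted p 0.0237, edgeR), and 15 of 18 mice of 28 mo were below the 3 mo median. It was -0.15, -0.10 and -0.09 within the batches, and the call held in 11 of 14 alternative analyses. Hnf4g, on chr3:3508030-3658052, had 26.1 ± 4.84 CPM at 3 mo, 26.3 ± 6.83 at 9 mo, 22.7 ± 3.20 at 15 mo, 22.0 ± 3.50 at 24 mo and 23.2 ± 3.82 at 28 mo. It was not called between 3 mo and 28 mo (-0.17 ± 0.09, adjusted p 0.132), and all 18 mice of 28 mo lay within the range of 3 mo mice. It was called in the test of any difference among the 5 ages (adjusted p 0.0399). The ratio of Hnf4a to Hnf4g was 5.08 ± 0.36 on the log2 scale at 3 mo and 5.14 ± 0.27 at 28 mo and was called in none of the 5 comparisons (lowest permutation adjusted p 0.273).

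That test of any difference called 5 of the 8 factors, Cdx1, Hnf4g, Klf4, Ehf and Elf3, against 54.9% of all genes. None of the 8 was called between 3 mo and 9 mo or between 9 mo and 15 mo, where 8.69% and 0.431% of genes were called. In the step from 3 mo to 9 mo, Cdx1, Ehf and Elf3 had unadjusted p below 0.05 (0.0240, 0.0219 and 0.0267) with fold changes of -0.12, -0.12 and -0.18. From 9 mo to 15 mo this held for Hnf4g alone (-0.21, unadjusted p 0.0313). DESeq2 called 0 and 0 members in these steps.

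**Figure D3:**
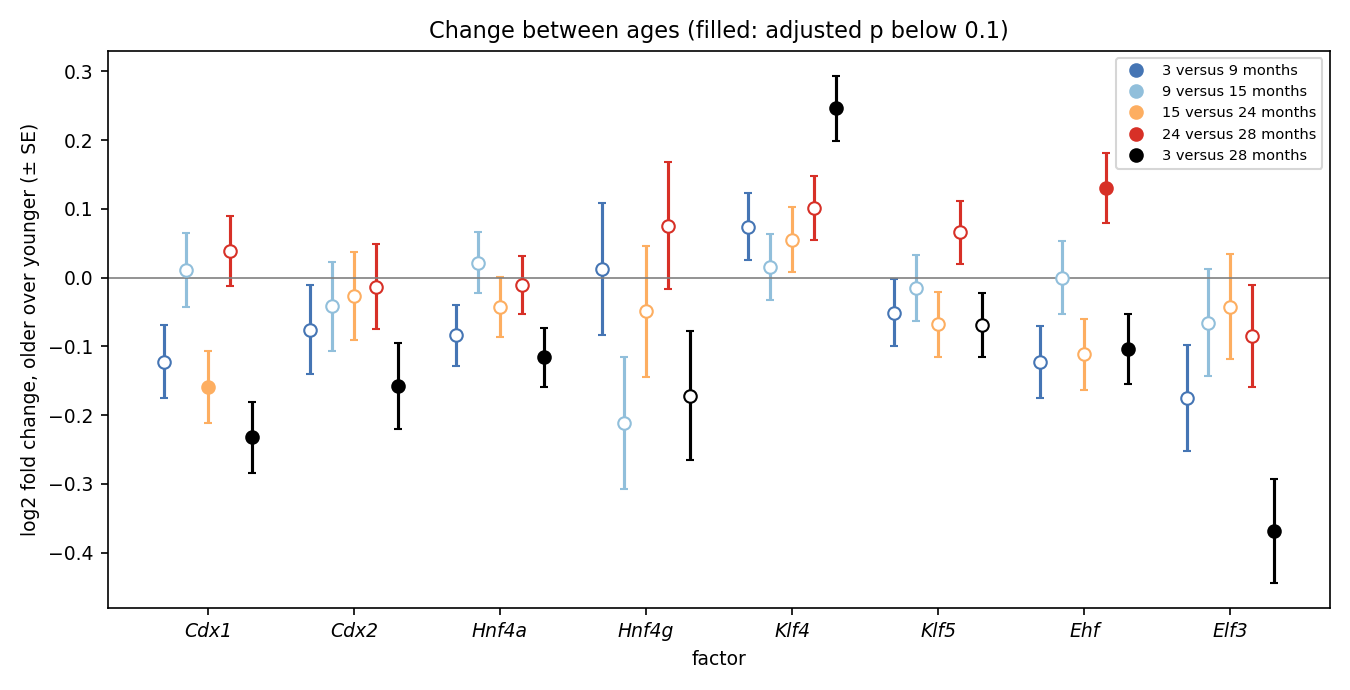
Log2 fold change of each factor, older over younger, with its standard error, for the 4 steps between neighbouring ages and for 3 mo against 28 mo. Filled points passed an adjusted p of 0.1. Filled are 6 of 8 points for 3 mo against 28 mo, Cdx1 for 15 mo against 24 mo and Ehf for 24 mo against 28 mo.

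The epithelium itself was followed with 8 markers that epithelial cells carry throughout the gut, such as Epcam, Cdh1 and keratins. All 8 were detected, and their summed level had a range of 9955 to 12920 CPM at 3 mo and of 8629 to 11978 CPM at 28 mo. Of these markers 4 were lower at 28 mo (Tspan8 by -0.19, Cdh1 by -0.17, Krt19 by -0.15 and Epcam by -0.09, log2) and none was higher. The median over the 8 markers was -0.08, against -0.14 over the 8 factors. With the mean log2 CPM of the 8 markers as a covariate, 4 factors were still called between 3 mo and 28 mo: Elf3 (-0.27, adjusted p 0.00234), Cdx1 (-0.12, adjusted p 0.00774), Klf4 (0.28, adjusted p 1.55e-06) and Ehf (-0.14, adjusted p 0.0311). The Cdx1 difference was -0.23 without the covariate. That fit called 8262 of the 18325 genes tested. Cdx2 (-0.07, adjusted p 0.378) and Hnf4a (-0.08, adjusted p 0.138) were not, and Hnf4g was (-0.27, adjusted p 0.0144).

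Markers of some other cell types were also called between the same ages. All 4 endothelial markers and 4 of 5 macrophage markers were higher at 28 mo, and the summed macrophage level had a median of 149 CPM at 3 mo and 188 CPM at 28 mo. All 4 tuft cell markers were lower (Trpm5 by -0.68 and Pou2f3 by -0.60, log2), and 3 of 4 B cell markers. Of 5 fibroblast markers Col3a1 and Col1a1 were lower (-0.31 and -0.28) and Dcn was higher (0.51), of 4 enteroendocrine markers Neurod1 and Pyy were lower (-0.41 and -0.21), and of 4 T cell markers Cd8a was higher (0.37). No marker of plasma cells (of 3) or of enteric neurons and glia (of 5) was called. Smooth muscle markers passed in neither direction (0 of 5) but ranged from 736 to 4440 CPM in sum among the 3 mo mice. Their part in the results for the 8 factors was not tested beyond the covariates named here. Of 8 immediate early genes, which respond to handling of tissue, Fosb was higher and Egr1 lower.

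Across mice, the 8 factors were compared after the means of age and batch had been taken out, so that only differences between mice of 1 age and batch were left. Of 28 pairs, 16 were correlated (Pearson's r, permutation test, adjusted p below 0.1), 14 positively and 2 negatively, and 13 of these 16 passed by Spearman's rho as well. As background, 33.9% of all pairs among 14951 genes had an absolute r at least as large as the lowest one called here (0.224). Without replicate 16 of 15 mo, described below, Cdx1 with Hnf4a, Klf5 and Elf3, Cdx2 with Hnf4g, and Ehf with Elf3 no longer passed. Klf4 with Ehf then passed (r = -0.23, permutation adjusted p 0.0983). The sign was the same in all 3 batches for 15 of the 16 pairs and at all 5 ages for 10. It differed at 1 age for Cdx1 with Hnf4a (-0.41 at 9 mo), Cdx1 with Klf5 (-0.22 at 9 mo), Cdx1 with Elf3 (-0.13 at 28 mo), Hnf4a with Klf4 (-0.33 at 3 mo), Hnf4a with Klf5 (-0.10 at 28 mo) and Ehf with Elf3 (-0.15 at 24 mo). The highest Pearson's r over all mice was that of Klf5 with Elf3 (r = 0.62, rho = 0.51, permutation adjusted p 4.67e-05 and 0.000112, n = 83 mice). It was 0.35, 0.52 and 0.80 within the batches and 0.50 without the 2 mice farthest from the median of Klf5. Cdx2 with Elf3 came next by this measure (r = 0.58, rho = 0.46, permutation adjusted p 4.67e-05 and 0.000112), with 0.08, 0.65 and 0.80 within batches and 0.46 without 2 mice. Where 2 mice are left out, they are those farthest from the median of the gene named first. Hnf4a with Elf3 and Hnf4a with Klf5 then had r = 0.52 and 0.51, but other mice were dropped there, so these values cannot be ranked. Without replicate 16 of 15 mo, r was 0.48 for Klf5 with Elf3 and 0.50 for Cdx2 with Elf3, so their order turned. In that setting Hnf4a with Elf3 had 0.34 and Hnf4a with Klf5 0.41. In these pairs, mice with more of 1 factor tended to have more of the other.

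The pairs of related genes did not behave alike. Cdx1 and Cdx2 went together (r = 0.47, rho = 0.40, permutation adjusted p 4.67e-05 and 0.0007, within batches 0.43, 0.30 and 0.59, without 2 mice 0.40). Ehf and Elf3 were weakly correlated (r = 0.23, rho = 0.12, permutation adjusted p 0.0624 and 0.444, without 2 mice 0.21). For Klf4 with Klf5 (r = 0.16, rho = 0.11) and Hnf4a with Hnf4g (r = 0.11, rho = -0.00) no correlation passed (permutation adjusted p 0.222 and 0.395). The strongest opposite pair was Cdx1 with Hnf4g (r = -0.50, rho = -0.40, permutation adjusted p 4.67e-05 and 0.0007), with -0.60, -0.43 and -0.48 within batches and -0.47 without 2 mice.

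**Figure D4:**
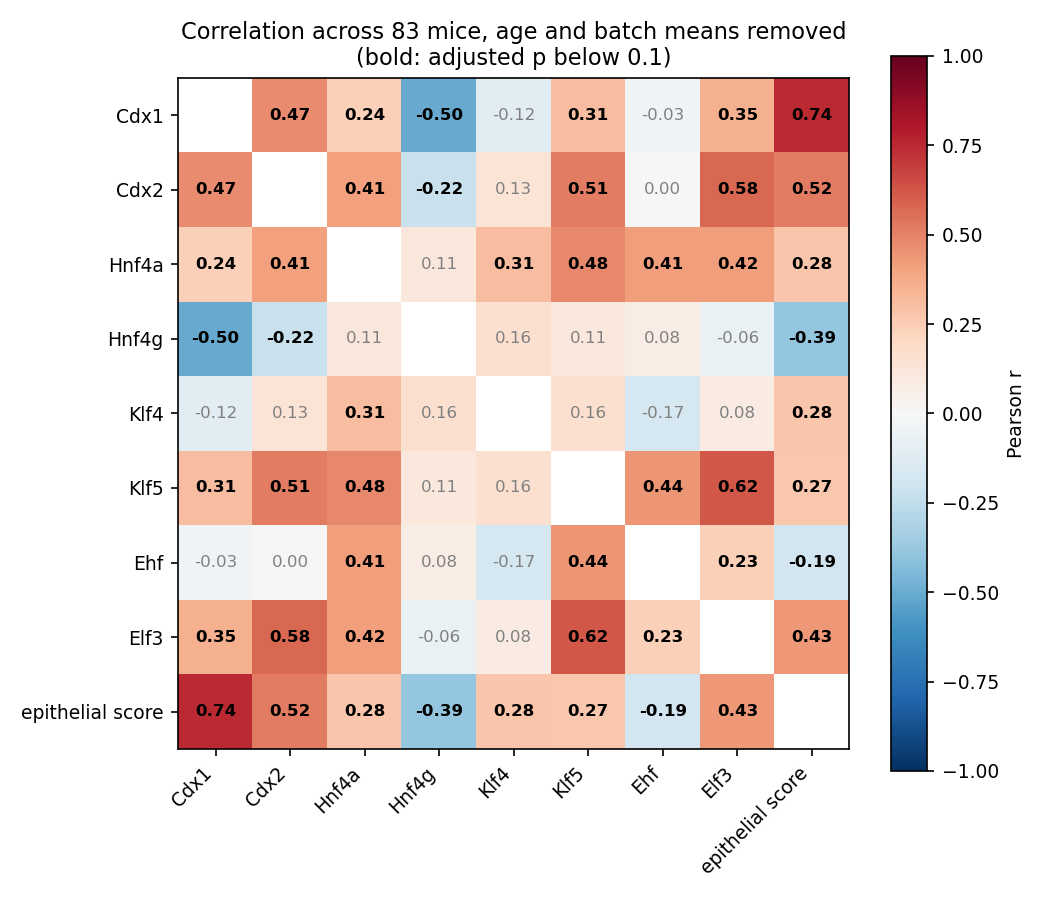
Pearson's r across 83 mice, after removal of age and batch means, for each pair of factors and for each factor with the mean of 8 epithelial markers, from blue (-1) to red (1). Bold values passed an adjusted p of 0.1. Klf5 with Elf3 is the highest value between factors (0.62), Cdx1 with the epithelial markers the highest overall (0.74), and Hnf4g is negative with Cdx1 (-0.50) and with the epithelial markers (-0.39).

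Correlation with the epithelial markers differed among the factors. Cdx1 followed them most closely (r = 0.74, rho = 0.73, permutation adjusted p 4e-05 and 8e-05), with 0.79, 0.54 and 0.82 within batches and 0.70 without 2 mice. Cdx2 had r = 0.52 and rho = 0.37 (permutation adjusted p 4e-05 and 0.00155), with 0.45, 0.34 and 0.63 within batches. Hnf4g went the opposite way (r = -0.39, rho = -0.40, permutation adjusted p 0.00138 and 0.00052), with -0.55, -0.19 and -0.39 within batches. All 8 factors passed by Pearson's r, but Klf5 did not by Spearman's (r = 0.27, rho = 0.05, permutation adjusted p 0.0201 and 0.665), with -0.31, 0.00 and 0.61 within batches. Ehf (r = -0.19, rho = -0.25, permutation adjusted p 0.0791 and 0.0320) had -0.65, -0.45 and 0.29 within batches, and r was 0.03 when the markers were summarised by their median. Of the 14951 genes, 53.1% had an absolute r with the epithelial markers at least as large as the lowest among the 8 factors (0.194). A single mouse, replicate 16 of 15 mo, decided much of the count of 8. Without replicate 16 of 15 mo only Cdx1, Cdx2, Hnf4g and Ehf passed, and r was 0.19 in place of 0.43 for Elf3, 0.16 in place of 0.28 for Hnf4a, 0.18 in place of 0.28 for Klf4, -0.03 in place of 0.27 for Klf5 and -0.36 in place of -0.19 for Ehf. In that setting 24.2% of the genes had an absolute r at least as large as the lowest called (0.365). Once the epithelial markers were taken out as well, 15 pairs of factors were correlated, 11 of them among the 16 named above. Cdx1 and Cdx2 were then not correlated (r = 0.15, permutation adjusted p 0.275), and Cdx1 with Klf4 was (r = -0.51, permutation adjusted p 7e-05). None of the 8 factors was correlated with the total count of the library (Pearson's r between -0.11 and 0.21, rho between -0.14 and 0.20, lowest permutation adjusted p 0.468 and 0.536).

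The mouse in question, of batch 3 with 43695304 counted read pairs, was low in most of the factors, in the epithelial markers and in several other marker lists. It had 224 CPM of Elf3 where the other 15 mice of 15 mo had at least 440.2, 272 CPM of Klf5 against at least 333 and 245 of Cdx2 against at least 296. Cdx1, Hnf4a and Klf4 were each below the lowest of the other 15 mice too, and Hnf4g, at 28.3 CPM, was above the highest. Ehf, at 422 CPM, lay within their range of 388 to 563. Its epithelial markers summed to 7443 CPM against 9876 to 11997, and its goblet cell markers to 18516 CPM against 32110 to 49031. Sums outside the epithelium were below all the others as well: fibroblast at 518 CPM against at least 815, endothelium at 62.1 against at least 95.0, and smooth muscle at 2818 against at least 2974. Those of T cells, B cells, plasma cells and macrophages lay within the range of the others. No call between 3 mo and 28 mo depended on this mouse. Without it Hnf4a and Klf5 were called as well in the test of any difference among ages. That test then called 10438 of 18325 genes, against 10069 with the mouse.

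The 3 genes most like each factor across the 83 mice, by residual Pearson's r over 14951 genes, are given as a description, since points share libraries. For Cdx1 they were Pgp, Tysnd1 and Nr2f6 (0.84, 0.82 and 0.82), and for Cdx2 Tfeb, Ascl2 and Lrrc47 (0.75, 0.70 and 0.69). ASCL2 is a factor of crypt stem cells and TFEB a regulator of lysosomal genes. Hnf4a was most like Rcor1, Zdhhc5 and Elmsan1 (0.79, 0.79 and 0.74), and Hnf4g most like Kat6b, Kmt5b and Rasa2 (0.82, 0.80 and 0.79). For Klf4 they were Magi1, Srebf2 and Dnmt1 (0.68, 0.67 and 0.65), and for Klf5 Foxd2, Nfe2l2 and Foxa1 (0.76, 0.74 and 0.73). FOXA1 is another factor of the gut epithelium. Ehf was most like Gopc, Polk and Fnbp1l (0.82, 0.80 and 0.78) and Elf3 most like Ube2z, Ephb4 and Bcl3 (0.76, 0.75 and 0.75). No factor of the set was among the 3 genes most like another.

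Genes that these factors are known to regulate were counted from lists, each at 3 mo against 28 mo. Of 12 CDX targets, Sis, Tff3 and Muc2 were lower (-0.63, -0.27 and -0.23) and Abcb1a was higher (0.42), with a median over the list of -0.07. Sis encodes the brush border enzyme sucrase-isomaltase, and Muc2 the main mucin of the colon. Of 12 HNF4 targets, 9 were tested and the median was -0.06. Creb3l3, Apob, Fabp2 and Mttp were higher at 28 mo, the first 3 by 1.29, 1.16 and 0.40, while Apoa1 and Cldn15 were among the genes that were lower, with -1.96 and -0.14. Apoa1 was near the limit of detection, with means of 0.651 and 0.166 CPM. Apob and Mttp serve the making of lipoproteins, and Creb3l3 is a factor that regulates lipid genes. Calls on this list thus went in both directions, while Hnf4a itself fell.

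Of 6 KLF4 and KLF5 targets, Alpi was higher at 28 mo (0.44), and Odc1, Cdk1 and Ccnd1 were lower (-0.28, -0.17 and -0.15). Alpi encodes the alkaline phosphatase of the enterocyte brush border, and the other 3 serve polyamine synthesis and cell division. The median of the list was -0.09. All 3 ELF3 targets, Lcn2, Nos2 and Tgfbr2, were higher (0.80, 0.71 and 0.24, median 0.71), while Elf3 was lower. Lcn2 and Nos2 are also genes of inflammation.

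Relatives of the 8 factors in the same families numbered 16, of which 14 were tested and Cdx4 and Elf5 were too low. Of the 14, Klf15, Klf11, Klf6, Klf9 and Klf13 were higher at 28 mo and Klf12 was lower. Klf15 rose from a mean of 3.06 to 6.63 CPM (1.10 ± 0.12, adjusted p 5.26e-12, edgeR) and Klf11 from 9.89 to 15.5 CPM (0.64 ± 0.11, adjusted p 2.13e-06). Klf12 fell from 7.45 to 5.50 CPM (-0.43 ± 0.09, adjusted p 8.24e-05). All 6 relatives called were Klf genes, as were most of the 14 tested, and the ETS relatives Elf1, Elf2 and Elf4 did not pass. Over all genes 49.4% were called between these ages, and a contrast between the families was not tested. The median over the 14 was 0.06.

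Of 20 other transcription factors of the gut epithelium, 9 were lower at 28 mo and 3 were higher, with a median of -0.05. The largest falls were those of Foxa3 (-0.35 ± 0.07, adjusted p 1.52e-05), Atoh1 (-0.26 ± 0.08, adjusted p 0.0103) and Spdef (-0.23 ± 0.10, adjusted p 0.0613), by edgeR. ATOH1 and SPDEF direct the secretory and goblet lineages. Of 5 goblet cell markers, Clca1, Fcgbp, Tff3 and Muc2 were lower and Zg16 was higher. The rises were those of Creb3l3 (1.29 ± 0.18), Prdm1 (0.48 ± 0.10) and Tcf7l2 (0.11 ± 0.05). Of the posterior Hox genes 3 of 4 were tested and Hoxd13 was lower (-0.82), at under 1 CPM.

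Of 5 absorptive colonocyte markers, Car4, Ceacam20 and Cdhr5 were lower at 28 mo (-0.33, -0.19 and -0.11) and none was higher. Of 5 genes typical of the small intestine, 2 passed the filter and both were higher at 28 mo. Gata4, the factor of the proximal small intestine, had a mean of 0.835 CPM at 3 mo and 4.08 CPM at 28 mo (2.28 ± 0.22, adjusted p 2.73e-14, edgeR), and Fabp6 a mean of 2.14 and 3.12 CPM. Among 4 crypt stem cell markers Lgr5 was lower (-0.26) and Axin2 higher (0.12).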

How the data were processed

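RNA-seq counts of the colon of 83 mice were analysed. Raw, not normalized counts per gene were deposited for every mouse. Per the labels and methods, the authors used cutadapt 2.8 and PrinSeq Lite for trimming and filtering, HISAT2 2.1.0 for alignment to GRCm38, SAMtools 1.9 to keep unique alignments, and featureCounts (Subread 2.0.1) for strand-specific counting. Age was taken from the sample labels, and no mouse was left out. Gene positions and merged exon lengths came from a GENCODE annotation of GRCm38.

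The main test was edgeR 4.0.16 (R 4.3.3). Genes kept by filterByExpr with age as group (18325 of 37764) were scaled with TMM and fitted in 1 quasi-likelihood model of age and batch over all mice, with Benjamini-Hochberg adjustment over all genes tested and a threshold of 0.1. CPM are TMM-scaled. Ratios and correlations used log2 CPM (prior count 2) and two-sided permutation tests with 100000 resamples (smallest p 1e-05) in Python 3.11.15 with numpy 2.4.6. Ratios were adjusted over 20 tests, pairs over 28 and epithelial correlations over 8. Alternatives included DESeq2 1.42.0. The code was tested on simulated data. Named genes are the 8 members, the 3 genes most like each (mean CPM of at least 1), and at most 3 rises and 3 falls per list. Other named genes were chosen after their values were seen. The members and lists were chosen with earlier results of these data known. No 2 mice of an age differed by as little as sampling noise over 649 pairs (lowest ratio 10.9). Some genes of the lists are counted and not reported by name here.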

Additional observations from a re-analysis of the deposited data

How the results depend on the processing

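The calls at 3 mo against 28 mo of Cdx1, Klf4 and Elf3 held in all 14 alternative analyses. Cdx2 was lost in 2, Hnf4a in 3 and Ehf in 8, and Hnf4g was gained in 2; the cause was not tested. Between 15 mo and 24 mo, 0 members were called with no filter on low counts or without any of the 3 batches. Between 24 mo and 28 mo, 0 were called at an adjusted p of 0.05, with no filter, no batch term, the replicate block, either marker score as covariate, without batch 1 or 2, and with the 2 ages alone. For the departure from a straight line, 0 were called at 0.05, with no filter, with the smooth muscle score or without batch 1, and 2 (Cdx1 and Ehf) with the epithelial score, which also gave 1 call (Cdx1) at 3 mo against 9 mo. Leaving out 15 mo replicate 16 or 28 mo replicate 13, chosen after seeing the data, gave 0 to 1 calls at 24 mo against 28 mo, 0 to 1 for the departure, 3 to 5 ratios and 4 to 7 factors correlated with the epithelial score. The correlation with that score turned sign for Klf5 (-0.0311 without 15 mo replicate 16, 0.298 without 28 mo replicate 13) and for Ehf (0.0276 with the median over the markers). No called fold change turned sign, and 27 of 560 refitted fold changes, none of them called, did. Replicate numbers did not pair the mice: residuals of mice with the same number had a median correlation of 0.02, against -0.00 for others, and the fit with the replicate block changed no other count of calls by over 1.5 times. At a median of 35495123 counts per mouse, each member had enough counts that the spread between mice and not counting set the error.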
